A study of Mus musculus with 20 samples.

Results

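Kidneys of mice given sparsentan at 60 mg/kg together with immune complexes (EIC + S60) were compared with kidneys of mice given the same complexes and vehicle (EIC). The comparison takes every library of both groups, 5 EIC and 5 EIC + S60, which is 10 of the 20 libraries of the study. Each library was made from poly(A)-selected kidney RNA of a single mouse. All mice were homozygous NCr nude (sp/sp) females, bought at 7 weeks of age, and nude mice lack the thymus and its T cells. Both groups carried EIC, which are complexes of a human galactose-deficient IgA1 myeloma protein (Gd-IgA1) with a human recombinant IgG autoantibody against it. Every mouse of both groups had 6 tail vein injections of 0.2 mg Gd-IgA1 with 0.1 mg IgG, given every other day. Gavage was daily for 11 days, with vehicle in EIC and with sparsentan in EIC + S60, and kidneys were taken on day 12. Control mice (PBS injections and vehicle, 5 mice) and EIC + S120 mice (EIC and sparsentan at 120 mg/kg, 5 mice) are given below only as reference levels. The study states that cages were not controlled for and does not say how mice were caged, so any part of cage cannot be told apart from treatment. It says both that mice were divided at random and that no randomization was done.

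Sparsentan blocks the type A endothelin receptor, encoded by Ednra, and the type 1 angiotensin II receptor, encoded in mice mainly by Agtr1a. Renin is made by juxtaglomerular cells of the afferent arteriole. It cuts angiotensinogen into angiotensin I, which converting enzyme turns into angiotensin II, and angiotensin II acting on its type 1 receptor restrains renin in a feedback loop. Immune complexes in the glomerulus can draw in macrophages and set off interferon responses, whose target genes include families of large GTPases that defend cells against pathogens.

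Total counts ran from 17403376 to 19635495 in EIC and from 15220943 to 27948916 in EIC + S60, where mouse 75 was the deepest. A count of 10 or more was reached in 5 or more of the 10 libraries by 13566 genes, which entered edgeR's two-sided quasi-likelihood test. Genes with a Benjamini-Hochberg adjusted p under 0.05 are called DE genes. LFC is the log2 fold change of EIC + S60 over EIC, so a negative LFC means a lower level with sparsentan, and levels are counts scaled to library size by TMM (CPM). The first principal component of log2 CPM held 29.7% of the variance and did not separate the groups, with EIC 66 at one end and EIC 67 at the other. The second held 13.9% and set EIC + S60 75 apart, at 32.5. On the second, EIC mice lay between −13.4 and −3.28, and EIC + S60 74, at −5.36, was within that range. EIC + S60 71, 72 and 73 were above it, at 9.68, 1.12 and 1.93. The mean log2 of CPM plus 1 over tested oxidative phosphorylation genes was 9.52 in EIC + S60 75. It was 10.52 to 10.81 in the other libraries compared, and 9.59 in Control 651. EIC 65 was the only library of the 10 with no gene at a count of 0, while the others had 377 to 622 such genes of 15780 listed. The tables may therefore list only genes with a count in EIC 65, and a marker absent from them may still have had counts in other mice.

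Ren1, the gene of renin, was the only DE gene. It was higher with sparsentan, at 667 ± 178 CPM (mean ± SD, n = 5) against 190 ± 37.7 CPM in EIC, a 3.50-fold difference. Lower levels were found for interferon-inducible GTPases, led by Gbp9, and for the distal tubule channel genes Trpm6 and Scnn1a, but these did not pass the test. Akr1b7, a gene expressed with renin in juxtaglomerular cells, was at a higher level, also without passing it. In all, 1 of 13566 genes was a DE gene (0.00737%), and no gene was a lower DE gene (0.0%) by edgeR. At an unadjusted p under 0.05 stood 842 genes (6.21%), 388 lower (2.86%) and 454 higher (3.35%). The median LFC of all genes tested was −0.01 and 52.4% of them had a negative LFC. DESeq2 called 14 genes, 6 higher and 8 lower, and limma-voom called none (838 at an unadjusted p under 0.05).

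**Figure D1:**
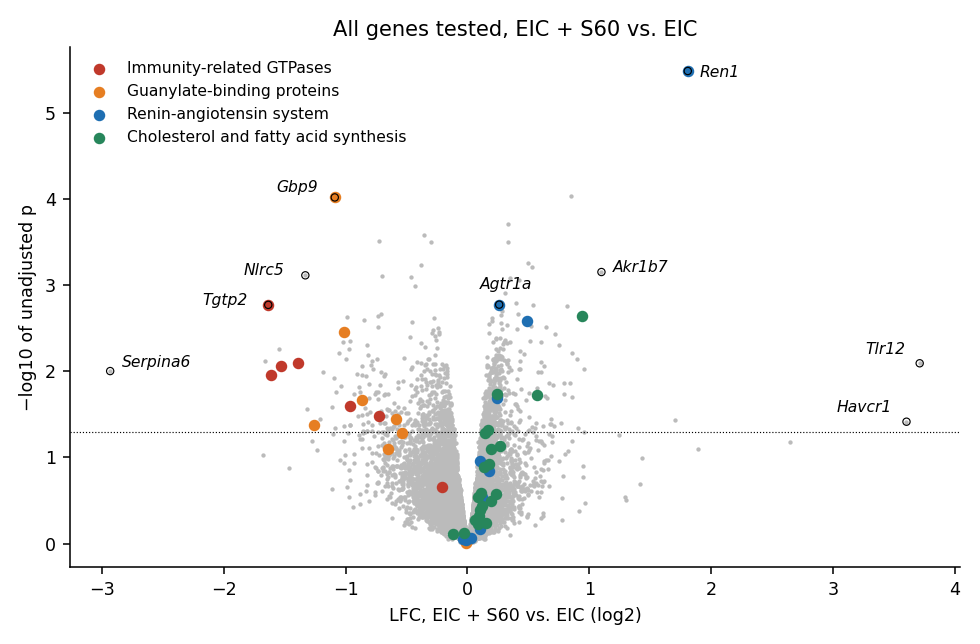
LFC of EIC + S60 vs. EIC (x axis, log2) against −log10 of the unadjusted p (y axis) for the 13566 genes tested, with the members of 4 lists in color and a dotted line at p of 0.05. Ren1 stands above all other genes at an LFC of 1.81, and the immunity-related GTPases and guanylate-binding proteins lie on the negative side.

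Ren1 (ENSMUSG00000070645.5) lies on chromosome 1 from 133350510 to 133360325 on the forward strand (GRCm38, GENCODE vM21). Its level was 138, 167, 202, 231 and 215 CPM in EIC 65 to 69. In EIC + S60 71 to 75 it was 802, 516, 826, 438 and 755 CPM. Every mouse on sparsentan lay above every EIC mouse, and EIC + S60 74 was the lowest of the sparsentan mice. The LFC was 1.81 (SE 0.21, adjusted p = 0.0444 by edgeR). Leaving out 1 library at a time kept the LFC between 1.71 and 1.92, but the adjusted p was under 0.05 only without EIC + S60 74 (0.00623) and between 0.0617 and 0.283 without each of the other 9 libraries. By DESeq2 the adjusted p was 2.97e-18. Control mice were at 136 ± 65.8 CPM and EIC + S120 mice at 697 ± 166 CPM. Between the doses Ren1 had an LFC of 0.06 (EIC + S120 over EIC + S60, adjusted p = 0.964 by edgeR), which does not show that both doses act alike. Some mouse strains carry a near-identical renin gene, Ren2, which the C57BL/6 reference lacks. The sources used here do not say whether NCr nude mice carry it, and its reads would count as Ren1. In whole kidney RNA, more cells of a type and more RNA per cell cannot be told apart.

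The 80 bases before the start of Ren1 are shown because they are the proximal promoter of the only DE gene. The start is that of RefSeq, which lies inside the gene as GENCODE draws it, so these bases fall within the GENCODE coordinates given above. They lie at chr1:133350594-133350673 on the forward strand and come from RefSeq, GRCm38.p6. The capitals mark the letters TATAAA, whose first base is at −29 from the start, and 13.6% of all 32851 promoter windows of 300 bases hold these letters on either strand.
Ren1: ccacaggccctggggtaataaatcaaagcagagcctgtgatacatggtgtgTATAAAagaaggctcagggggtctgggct

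Akr1b7, an aldo-keto reductase that marks renin-producing cells, was at 2.21, 1.95, 2.71, 3.10 and 2.58 CPM in EIC 65 to 69 and at 8.62, 3.24, 6.19, 3.87 and 5.09 CPM in EIC + S60 71 to 75. The groups did not overlap, which held for 112 genes (0.826% of those tested), 63 of them in the higher direction (0.464%). Its LFC was 1.10 (SE 0.24, unadjusted p = 0.000704, adjusted p = 0.692 by edgeR), and DESeq2 called it (adjusted p = 0.0376, with a highest value of 0.998 over all settings). For both Ren1 and Akr1b7 the mice 71, 73 and 75 were the highest of EIC + S60, and 72 and 74 the lowest. Akr1b7 is also a gene of the adrenal cortex. Among the 11 adrenal markers listed, 4 were not analysed here (Cyp11a1, Cyp11b2, Th and Dbh), and 5 of the other 7 had under 1 CPM in each group. Their summed level, Akr1b7 included, ran from 4.48 to 6.14 CPM in EIC and from 6.43 to 11.4 CPM in EIC + S60. Akr1b7 itself makes part of this sum, so the sum cannot show whether other adrenal genes differed. Of the 2 adrenal markers tested, the one beside Akr1b7 had an LFC of 0.04. The part of adrenal tissue was not tested.

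Levels of mesangial and mural cell markers other than the renin cell genes overlapped between the groups. Summed over 15 markers, without Ren1 and Akr1b7, they ran from 163 to 310 CPM in EIC (median 249) and from 197 to 332 CPM in EIC + S60 (median 264). Over all 17 markers the median LFC was 0.17 and 15 were positive, with 3 at an unadjusted p under 0.05, all higher (3.35% of all genes). The third of these, after Ren1 and Akr1b7, was Cspg4, a proteoglycan of pericytes, with an LFC of 0.23 (unadjusted p = 0.0256). The p of Cspg4 was at or over 0.05 without EIC 65, EIC 66, EIC 68 or EIC + S60 75.

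Agtr1a, the angiotensin II receptor that sparsentan blocks, was at 44.2, 42.9, 41.0, 38.6 and 45.0 CPM in EIC 65 to 69 and at 57.5, 46.8, 49.5, 49.5 and 50.5 CPM in EIC + S60 71 to 75. The groups did not overlap, although the nearest mice, EIC 69 and EIC + S60 72, were close. The LFC was 0.26 (SE 0.07, unadjusted p = 0.00168, adjusted p = 0.785 by edgeR). Lnpep, a membrane aminopeptidase that binds angiotensin IV, had an LFC of 0.49 (unadjusted p = 0.0026) and overlapped in 1 mouse, EIC + S60 72. Enpep, the aminopeptidase that breaks down angiotensin II, had an LFC of 0.18 (unadjusted p = 0.145). Agt, the precursor, and Ace, the converting enzyme, had LFCs of 0.10 and −0.04, and the sign of each changed when single libraries were left out. Of the 16 genes of the renin-angiotensin list, 12 were tested. Of these, 4 were higher and 0 lower at an unadjusted p under 0.05 (3.35% and 2.86% of all genes), and the median LFC was 0.11.

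**Figure D2:**
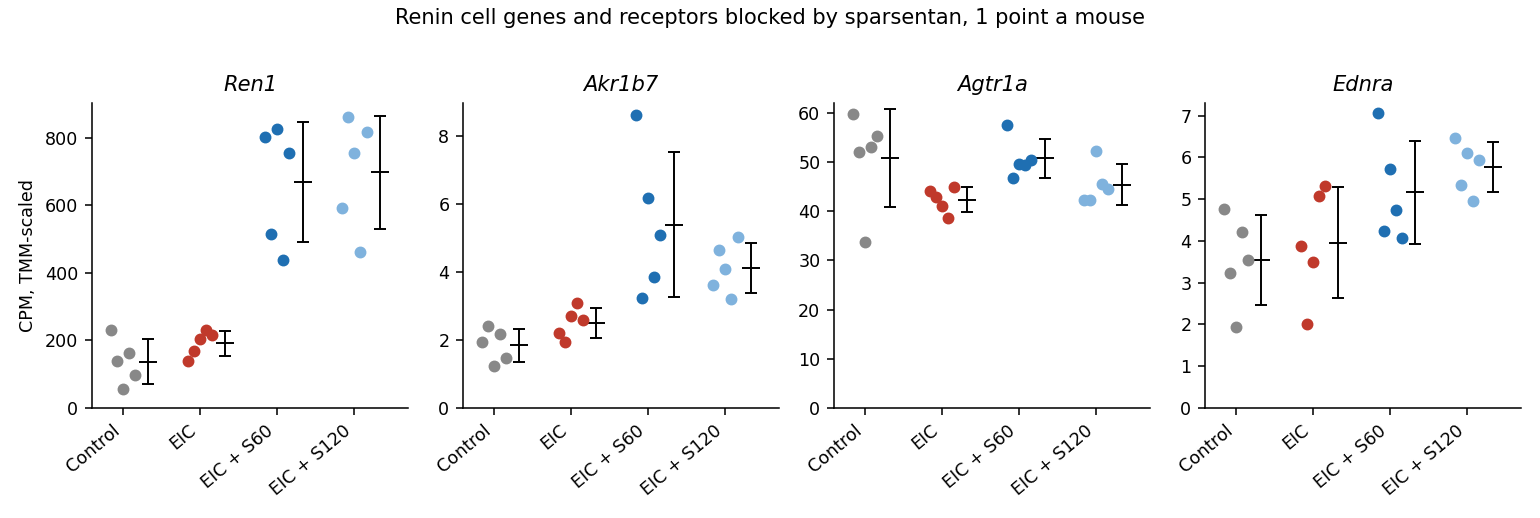
CPM of Ren1, Akr1b7, Agtr1a and Ednra (y axes, linear from 0) by group, 1 point a mouse, with the mean and SD of the 5 mice in black. Every EIC + S60 mouse lies above every EIC mouse for Ren1, Akr1b7 and Agtr1a, and the groups overlap for Ednra.

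Endothelin genes had LFCs between −0.22 and 0.37. Ednra, the receptor that sparsentan blocks, was at 3.88, 2.01, 3.50, 5.09 and 5.32 CPM in EIC 65 to 69 and at 7.05, 4.23, 5.73, 4.74 and 4.06 CPM in EIC + S60 71 to 75, an LFC of 0.37 (SE 0.25, unadjusted p = 0.146). Mice 71 and 73 were above every EIC mouse, and the other 3 lay within the range of EIC. The type B receptor Ednrb had an LFC of −0.18 (unadjusted p = 0.327), the ligand gene Edn1 one of 0.32 (unadjusted p = 0.241) and the ligand gene Edn3 one of −0.22 (unadjusted p = 0.307). Ece1, which cuts the endothelin precursor, was the only one of 6 tested members at an unadjusted p under 0.05 (LFC 0.14, unadjusted p = 0.0435). Of all genes, 6.21% stood at that threshold. The p of Ece1 was at or over 0.05 in 6 of the 10 fits that left out a library, up to 0.125 without EIC + S60 75 (LFC 0.09).

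Interferon-inducible GTPases were at lower levels with sparsentan. Guanylate-binding proteins (GBPs) and immunity-related GTPases (IRGs) gather on the membranes of vacuoles that hold pathogens and are switched on by interferon-gamma, in part through promoter sites called GAS. All 8 GBPs tested and all 7 IRGs tested had negative LFCs, with medians of −0.76 and −1.39. Lower at an unadjusted p under 0.05 were 5 of the 8 GBPs and 6 of the 7 IRGs (2.86% of all genes), and 0 were higher. No member of either family was a DE gene. Reads may be shared between Tgtp1 and Tgtp2, between Igtp and Irgm2 and between Gbp9 and Gbp4, so members are not independent counts. EIC 67 was the highest of the 5 EIC mice for each of the 12 GBPs and IRGs that were examined mouse by mouse. Without it the medians were −0.41 and −0.89, and 3 GBPs and 5 IRGs were lower at an unadjusted p under 0.05. The count of GBPs was also 3 without EIC 69, EIC + S60 71, 73 or 75, and that of IRGs was lowest, at 4, without EIC 69 or EIC + S60 75.

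Gbp9 had the smallest p of all genes with a negative LFC. It was at 3.54, 3.21, 6.32, 4.91 and 4.63 CPM in EIC 65 to 69 and at 1.76, 2.32, 2.29, 2.02 and 2.19 CPM in EIC + S60 71 to 75. No sparsentan mouse reached the lowest EIC mouse, as held for 49 genes in the lower direction (0.361%). The LFC was −1.09 (SE 0.19, unadjusted p = 9.6e-05, adjusted p = 0.434 by edgeR), and by DESeq2 Gbp9 was called (adjusted p = 0.00402, with a highest value of 0.998 over all settings). It stayed at −0.94 without EIC 67 (unadjusted p = 0.000226). Control mice were at 2.27 ± 0.62 CPM and EIC + S120 mice at 2.49 ± 0.71 CPM. Gbp9 and Gbp4 overlap on the reverse strand of chromosome 5 (105077630 to 105139539 and 105115767 to 105139586), so reads of the shared part are uncertain. Gbp4 had an LFC of −1.02 (unadjusted p = 0.00349), with EIC + S60 72 at 3.36 CPM above the other 4 sparsentan mice (1.84 to 2.19 CPM).

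Tgtp2, an IRG, was at 4.76, 3.39, 14.7, 5.91 and 8.37 CPM in EIC 65 to 69 and at 1.89, 3.71, 1.95, 2.89 and 1.59 CPM in EIC + S60 71 to 75. Apart from EIC + S60 72, which lay above EIC 66, the groups were separate. The LFC was −1.64 (SE 0.36, unadjusted p = 0.00169, adjusted p = 0.785 by edgeR; adjusted p = 0.015 by DESeq2). Its near-identical neighbor Tgtp1 had an LFC of −1.53 (unadjusted p = 0.00875), which was −0.97 without EIC 67, and reads may be shared between both. Iigp1, an IRG that disrupts vacuoles of parasites, had an LFC of −1.39 (unadjusted p = 0.0081) and −0.89 without EIC 67. Igtp and Irgm2 overlap on chromosome 11 as annotated, and their counts are uncertain for that reason. Their LFCs were −0.96 and −0.73 (unadjusted p = 0.0254 and 0.0331), and −0.54 and −0.43 without EIC 67. Irgm1, a regulator of the other IRGs, had the smallest difference of the family, with an LFC of −0.21 (unadjusted p = 0.217).

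The promoters of Tgtp2, Tgtp1, Igtp and Irgm2 hold the same arrangement of letters and are shown for that reason, as 50 bases each from RefSeq, GRCm38.p6. Searched on both strands were GAS, as TTCNNNGAA, and the interferon-stimulated response element (ISRE), as GAAA and GAAA with any 2 bases between them, and the capitals mark both. In each of the 4 stretches a GAS starts 11 bases before an ISRE, in the direction of transcription. This spacing was noticed in the sequences and then searched in all windows of 250 bases before to 50 after a start. It was held by 5 of 32851 windows (0.0152%), while 8.3% held a GAS and 3.44% an ISRE. Those 5 include the windows of the 4 genes shown, from which the spacing was taken, so the share is not independent of them. The stretches lie at chr11:49064259-49064308 (Tgtp2, reverse strand), chr11:48992300-48992349 (Tgtp1, reverse strand), chr11:58199496-58199545 (Igtp, forward strand) and chr11:58214887-58214936 (Irgm2, forward strand).
Tgtp2: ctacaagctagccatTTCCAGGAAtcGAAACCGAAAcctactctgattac
Tgtp1: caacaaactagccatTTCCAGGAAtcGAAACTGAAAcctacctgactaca
Igtp: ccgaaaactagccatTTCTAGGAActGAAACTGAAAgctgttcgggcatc
Irgm2: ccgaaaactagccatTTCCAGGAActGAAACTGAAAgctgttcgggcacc
The 4 genes are relatives of one another, so their shared letters are not independent. Irgm1, the fifth IRG with a window, held an ISRE and no GAS. Among 5 GBPs with a window, 5 held an ISRE, 2 a GAS and 0 the spaced pair. A match of letters is a description of the window.

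Among regulators of interferon responses, Nlrc5, which switches on genes of MHC class I, was at 1.92, 1.26, 2.31, 1.29 and 1.37 CPM in EIC and at 0.653, 0.811, 0.344, 0.436 and 0.919 CPM in EIC + S60, with 22 to 41 and 6 to 26 counts behind these values. The groups did not overlap, with an LFC of −1.33 (SE 0.28, unadjusted p = 0.00077, adjusted p = 0.692 by edgeR). Socs1, which shuts down cytokine signals, had an LFC of −1.04 on few counts (unadjusted p = 0.0147), and Irf1, a transcription factor that interferon-gamma induces, one of −0.57 (unadjusted p = 0.026). Of 14 tested interferon-gamma pathway genes, 4 were lower and 0 higher at an unadjusted p under 0.05 (2.86% and 3.35% of all genes). The median LFC was −0.24 and ran from −0.29 to −0.02 when single libraries were left out. The count of lower genes was 2 without EIC + S60 75, where Socs1 was no longer tested and Irf1 had an unadjusted p of 0.0589 by edgeR.

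**Figure D3:**
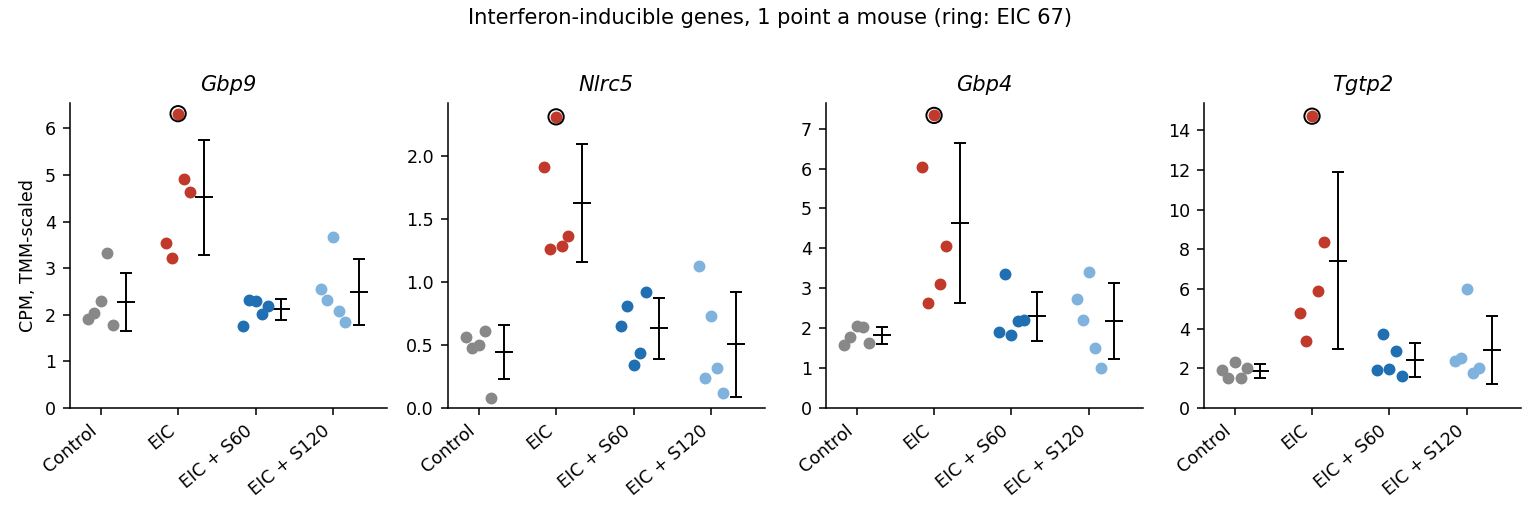
CPM of Gbp9, Nlrc5, Gbp4 and Tgtp2 (y axes, linear from 0) by group, 1 point a mouse, with the mean and SD of the 5 mice in black and a ring around EIC 67. All EIC + S60 mice lie below all EIC mice for Gbp9 and Nlrc5, while EIC + S60 72 lies above EIC 66 for Gbp4 and Tgtp2.

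Type I interferon-stimulated genes had negative LFCs in 26 of 27 tested members, with a median of −0.44. Only 4 of them were lower at an unadjusted p under 0.05 (2.86% of all genes). Zbp1, a sensor of nucleic acids, had an LFC of −1.11 (unadjusted p = 0.0256), Isg15, a ubiquitin-like protein, one of −0.83 (unadjusted p = 0.049), Oasl2 one of −0.67 (unadjusted p = 0.0393) and Irf9 one of −0.34 (unadjusted p = 0.0318). That count rested on single libraries. It was 0 without EIC 67 or EIC 69, 1 without EIC + S60 73, 74 or 75, 7 without EIC 65, 11 without EIC + S60 72 and 16 without EIC 66. In MHC class I loading and the immunoproteasome, 1 of 20 tested genes was lower (2.86% of all genes). It was Psmb9, an inducible proteasome subunit (LFC −0.96, unadjusted p = 0.0253). Without EIC 67 its LFC was −0.55 (unadjusted p = 0.0621). All 9 tested MHC class II genes had negative LFCs and none had an unadjusted p under 0.05.

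The same EIC mouse stood highest in macrophage genes. The summed level of 22 macrophage and monocyte markers was 162, 149, 360, 176 and 244 CPM in EIC 65 to 69 and 158, 208, 120.6, 178 and 128 CPM in EIC + S60 71 to 75. EIC 67 had the highest sum and EIC + S60 73 the lowest, and the ranges overlapped. Over the 20 tested markers the median LFC was −0.54 and 18 were negative (52.4% of all genes were). At an unadjusted p under 0.05, 5 were lower (2.86% of all genes). Without EIC 67 the median was −0.20 and 2 were lower. The count ran from 2, also without EIC 69 or EIC + S60 75, to 11 without EIC 65, with 8 without EIC 66 and 3 without EIC 68, EIC + S60 71 or 74. Adgre1, the F4/80 antigen, had an LFC of −0.46 (unadjusted p = 0.206) and −0.11 without EIC 67. Lyz2, the lysozyme of phagocytes, had one of −1.10 (unadjusted p = 0.0539) and −0.56 without EIC 67. The part of macrophage number in the interferon values was not tested. T and NK cell markers summed to 3.27 to 8.97 CPM in EIC and to 2.92 to 5.23 CPM in EIC + S60, and Cd3d, Cd3e and Cd3g were not analysed here.

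Among genes of antibody and complement handling, C1qb and C1qc, chains of the subunit that binds immune complexes, had LFCs of −0.91 (unadjusted p = 0.0108) and −0.88 (unadjusted p = 0.0174), and −0.64 and −0.53 without EIC 67. The other chain, C1qa, had an LFC of −0.69 (unadjusted p = 0.0502), and −0.40 (unadjusted p = 0.125) without EIC 67. Cfb, a factor of the alternative pathway that tubule cells make, had an LFC of 0.17 (unadjusted p = 0.0326). Over 22 complement genes the median LFC was 0.00, with 3 lower and 1 higher (2.86% and 3.35% of all genes). Fcer1g, the signaling chain of activating Fc receptors, and Fcgr1, a high-affinity IgG receptor, had LFCs of −0.71 (unadjusted p = 0.029) and −0.86 (unadjusted p = 0.049), and neither was under 0.05 without EIC 67. Fcgrt, the neonatal Fc receptor that recycles IgG and albumin, was between 313 and 354 CPM in EIC and between 236 and 334 CPM in EIC + S60, an LFC of −0.20 (unadjusted p = 0.0326). Over 12 tested Fc receptor genes the median LFC was −0.36 and 3 were lower (2.86% of all genes). Without EIC 67 that median was −0.15 and 1 was lower, as without EIC + S60 74, while none was without EIC + S60 75. Leukocyte integrins and actin regulators had a median LFC of −0.38 over 16 tested genes, with 0 under an unadjusted p of 0.05 and a median of 0.01 without EIC 67. Clec12a, an inhibitory lectin of myeloid cells, had an LFC of −1.21 (unadjusted p = 0.036), which was −0.46 (unadjusted p = 0.21) without EIC 67. The median of the 8 tested lectins and Siglecs was −0.53, or −0.21 without EIC 67. Genes that the study ranked for the 60 mg/kg dose were lower at an unadjusted p under 0.05 in 10 of 13 tested members (2.86% of all genes). Those it measured by qRT-PCR were lower in 6 of 7. Without EIC 67 the p was over 0.05 for Clec12a, Gbp6 and Zbp1 of the ranked list and for Fcer1g and Irgm2 of the qRT-PCR list. Both lists were chosen on these same kidneys and are not independent evidence of their direction.

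Of 14 tested markers of the loop of Henle and distal tubule, 1 had groups that did not overlap, Trpm6. Of 18 tested genes of mineralocorticoid action and sodium transport, 1 did, Scnn1a. Both were lower, and 0.361% of all genes did not overlap in that direction. Trpm6, the magnesium channel of the distal convoluted tubule, was at 7.96, 9.58, 4.68, 4.91 and 5.32 CPM in EIC 65 to 69 and at 4.11, 3.995, 4.01, 4.14 and 3.36 CPM in EIC + S60 71 to 75. The groups did not overlap, and the EIC mice split into a high pair, 65 and 66, and 3 mice just above the sparsentan range. The LFC was −0.73 (SE 0.19, unadjusted p = 0.00307, adjusted p = 0.785 by edgeR). Scnn1a, the alpha subunit of the epithelial sodium channel, was at 143, 145, 113, 114 and 119 CPM in EIC and at 106, 79.2, 110, 102 and 109 CPM in EIC + S60. Its groups did not overlap either, and again EIC 65 and 66 were the highest. The LFC was −0.32 (SE 0.10, unadjusted p = 0.00712, adjusted p = 0.785 by edgeR). Stk39, the kinase that activates sodium chloride cotransporters, had an LFC of −0.24 (unadjusted p = 0.031). Slc12a3, the thiazide-sensitive cotransporter, had one of −0.42 (unadjusted p = 0.112), with EIC at 145 to 341 CPM and EIC + S60 at 143 to 222 CPM. Among 18 tested genes of mineralocorticoid action and sodium transport 15 had negative LFCs, 2 were lower and 0 higher at an unadjusted p under 0.05 (2.86% and 3.35% of all genes), and the median LFC was −0.06. The count of 2 ran from 1 to 3 when single libraries were left out, and it was 1 without EIC 65, EIC 69, EIC + S60 71 or 73.

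Markers of the loop of Henle and distal tubule had a median LFC of −0.25 over 14 tested genes, 13 of them negative. At an unadjusted p under 0.05, 2 were lower (2.86% of all genes), Trpm6 and Pvalb. That count was 4 without EIC 67, EIC 68 or EIC + S60 74, and 1 without EIC 65, 66 or 69. Pvalb, a calcium buffer of the distal convoluted tubule, had an LFC of −0.31 (unadjusted p = 0.023). Umod, the uromodulin of the thick ascending limb, had one of −0.48 (unadjusted p = 0.0664). The summed level of these 14 markers ran from 5537 to 10570 CPM in EIC and from 4686 to 7679 CPM in EIC + S60, which overlap. The part of the share of distal tubule in each kidney piece was not tested. Collecting duct markers had a median LFC of −0.10 over 15 tested genes, with Krt7, a keratin, at −0.28 (unadjusted p = 0.0173) and Gata2, a transcription factor, at −0.19 (unadjusted p = 0.0284).

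Proximal tubule genes lay on the other side. Cubn, the receptor that takes up filtered albumin with megalin, was at 380, 445, 346, 312 and 436 CPM in EIC 65 to 69 and at 449, 398, 469, 638 and 584 CPM in EIC + S60 71 to 75. All sparsentan mice but 72 lay above every EIC mouse, and the LFC was 0.40 (SE 0.14, unadjusted p = 0.0124). Lrp2, the gene of megalin, was at 2164 ± 317 CPM against 1615 ± 312 CPM in EIC, an LFC of 0.42 (unadjusted p = 0.00934). Of 20 proximal tubule markers 16 had positive LFCs, and the median LFC was 0.10. At an unadjusted p under 0.05, 4 were higher and 0 lower (3.35% and 2.86% of all genes). The count of higher genes was 9 without EIC 66, 5 without EIC + S60 72, 3 without EIC 69 and 2 without any other single library. Their summed level overlapped, at 27880 to 32720 CPM in EIC and 28330 to 33230 CPM in EIC + S60.

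Genes of cholesterol and fatty acid synthesis had mostly positive LFCs. Srebf2, the transcription factor that switches on cholesterol synthesis, was between 71.6 and 88.1 CPM in EIC and between 78.97 and 112.8 CPM in EIC + S60. Mice 71, 74 and 75 lay above every EIC mouse, and 72 and 73 were within the range of EIC. The LFC was 0.24 (SE 0.09, unadjusted p = 0.0184, adjusted p = 0.785 by edgeR), and p was at or over 0.05 without EIC 69 or EIC + S60 75 (LFC 0.17 without the latter). Acly, which makes the acetyl-CoA that both pathways start from, had an LFC of 0.17 (unadjusted p = 0.0474), and p was under 0.05 in 4 of the 10 fits that left out a library. Of 21 tested genes of cholesterol and fatty acid synthesis 19 had positive LFCs, 4 were higher and 0 lower at an unadjusted p under 0.05 (3.35% and 2.86% of all genes), and the median LFC was 0.15. The count of higher genes ran from 3 to 6 when single libraries were left out.

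**Figure D4:**
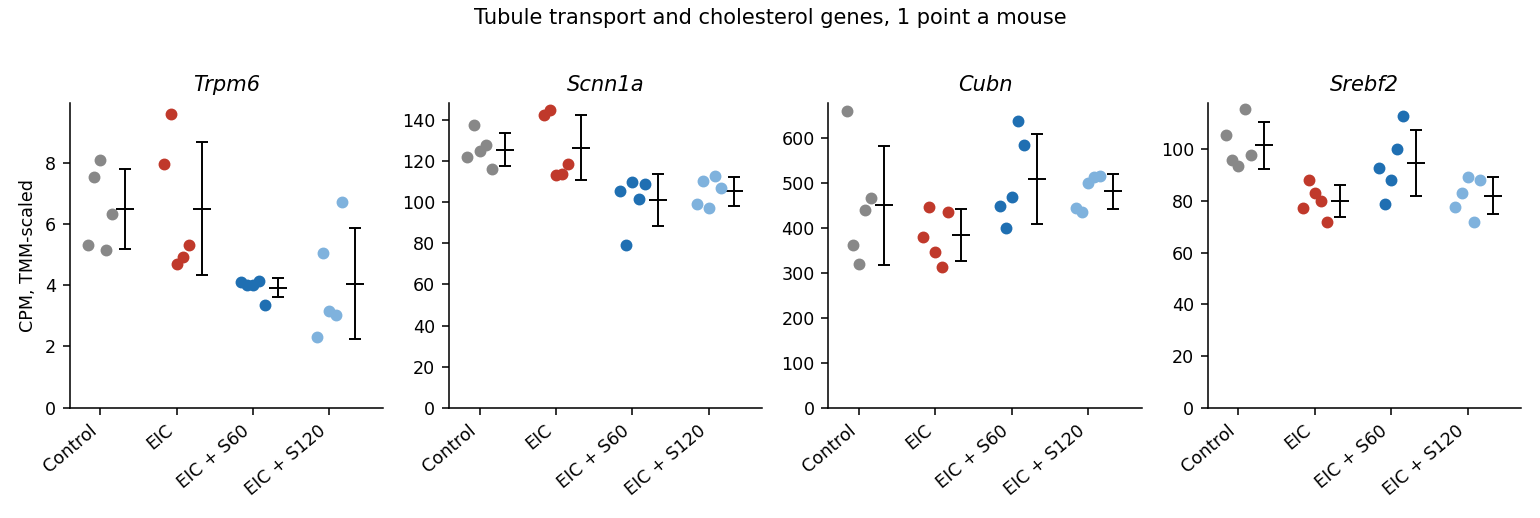
CPM of Trpm6, Scnn1a, Cubn and Srebf2 (y axes, linear from 0) by group, 1 point a mouse, with the mean and SD of the 5 mice in black. EIC + S60 mice lie below all EIC mice for Trpm6 and Scnn1a, and 4 of 5 lie above all EIC mice for Cubn and 3 of 5 for Srebf2.

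Several genes with small p-values fall in none of these groups. Cyp2a4, a steroid hydroxylase, was at 5.42 to 10.2 CPM in EIC and at 12.2 to 15.9 CPM in EIC + S60, an LFC of 0.85 (SE 0.15, adjusted p = 0.434 by edgeR), and it shares near-identical copies in its family, so its counts are uncertain. Celsr2, an adhesion receptor of planar cell polarity, and Mgam, a glucosidase, had LFCs of 0.33 and 0.33, and Fhl3 had one of 0.53. On the lower side, Bcat2, the mitochondrial enzyme that starts the breakdown of branched-chain amino acids, was at 95.1 to 119 CPM in EIC and at 78.4 to 88.7 CPM in EIC + S60, an LFC of −0.36. Pvr, the poliovirus receptor homolog, a ligand of NK and T cell receptors, had an LFC of −0.73, Ddx17, an RNA helicase, one of −0.38, and Lrtm2 one of −0.70. The groups did not overlap for any of these 8 genes (0.826% of all genes), and the adjusted p was between 0.434 and 0.692 by edgeR. These genes are named for their small p in this comparison, so the separation of their groups is not further evidence. Itpr2, ranked 9 by p with an LFC of 0.50, did overlap, with 4 sparsentan mice above every EIC mouse. DESeq2 called it (adjusted p = 0.0285). DESeq2 called Cyp2a4, Celsr2, Mgam, Bcat2, Pvr and Ddx17, with adjusted p from 0.0011 to 0.0376.

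Some genes with LFCs of large size were high in only a few of the 10 mice compared. Tlr12, a receptor for profilin of parasites, had an LFC of 3.71 (unadjusted p = 0.00807), with EIC + S60 71, 73 and 74 at 13.1, 9.86 and 10.7 CPM and mice 72 and 75 at 0.463 and 0.141 CPM. Control 651, at 22.2 CPM, was above these, while the other Control mice were under 1 CPM. EIC + S120 78 to 81 were at 9.44 to 13.85 CPM and EIC + S120 77 was at 0.237 CPM. Havcr1, the tubular injury marker KIM-1, had an LFC of 3.60 (unadjusted p = 0.0384), with EIC + S60 72 at 65.5 CPM, and 0.18 without that mouse. Single mice of the other groups were high as well, Control 651 at 44.3 CPM and EIC + S120 78 at 32.15 CPM. Uroc1, an enzyme of histidine breakdown, was high in EIC + S60 74 and 75 (24.6 and 29.4 CPM) and between 2.74 and 5.26 CPM in the other 8 mice compared. It was also high in Control 653 and 654 (44.3 and 28.8 CPM) and in EIC + S120 77 and 80 (28.5 and 27.3 CPM). Serpina6, the corticosteroid-binding globulin, had an LFC of −2.93 (unadjusted p = 0.00993), with EIC 65 alone at 27.3 CPM. The other EIC mice were at 1.03 to 8.26 CPM and EIC + S60 mice at 0.405 to 2.45 CPM. With 1 library left out its LFC ran from −3.42 to −1.79, and its unadjusted p by edgeR was under 0.05 in all 10 fits.

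**Figure D5:**
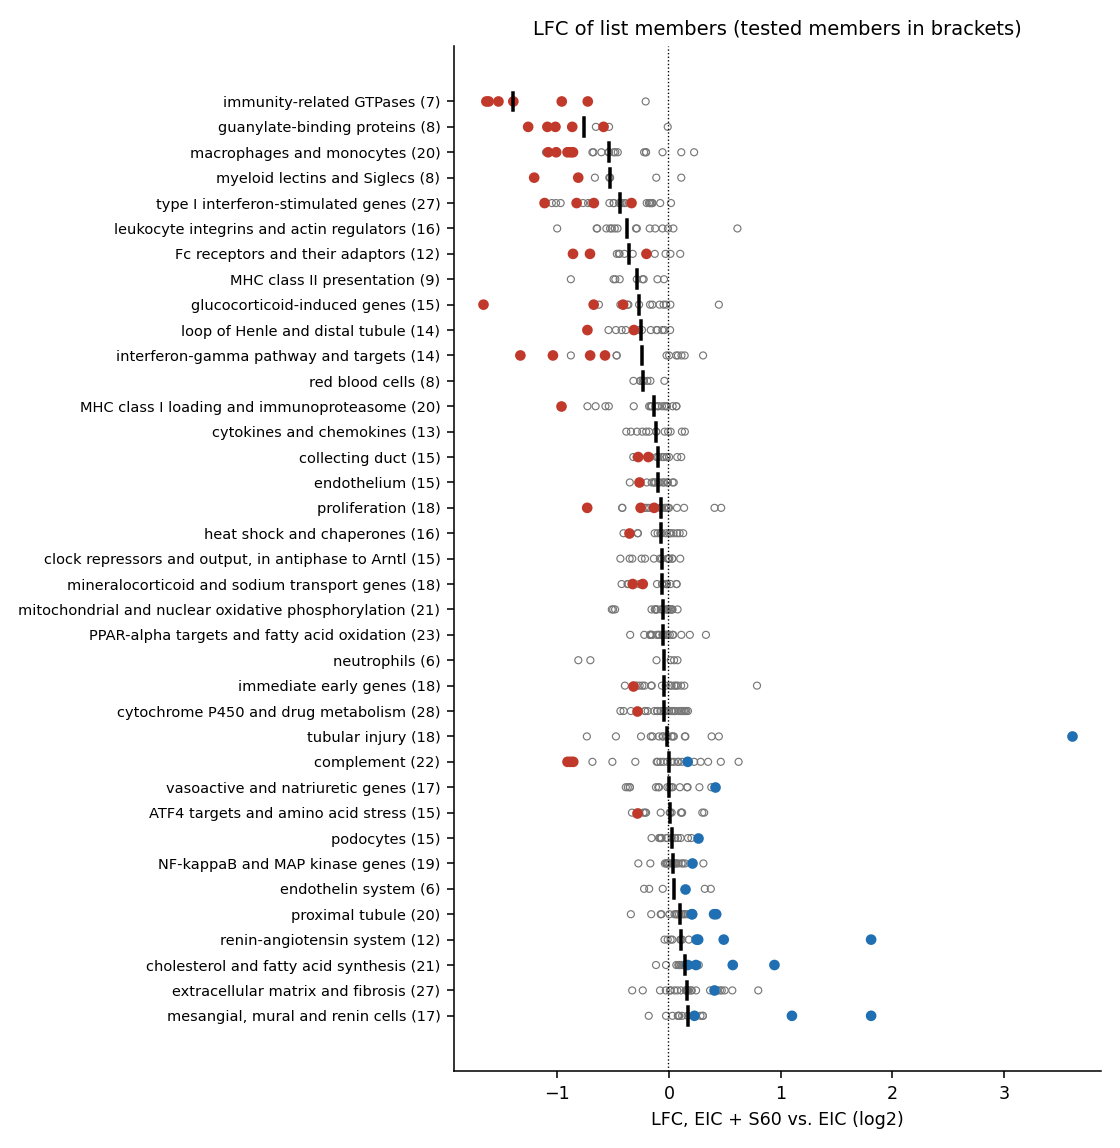
LFC of EIC + S60 vs. EIC (x axis, log2) for every tested member of each list with at least 6 tested members, 1 row a list; filled points have an unadjusted p under 0.05 (red lower, blue higher), black bars are medians, and the dotted line is the median of all genes, −0.01. Immunity-related GTPases have the lowest median (−1.39) among the lists not chosen by the study, and Havcr1 among the tubular injury genes is the point farthest to the right, at 3.60.

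Extracellular matrix genes had a median LFC of 0.16, with 23 of 27 positive and 1 higher at an unadjusted p under 0.05 (3.35% of all genes). That count was 6 without EIC + S60 74, 3 without EIC 67 or 69, and 0 without EIC 65, EIC 68, EIC + S60 71, 73 or 75. Cell cycle genes had 3 of 18 lower (2.86% of all genes). Among them was Pcna, the sliding clamp of DNA replication, whose groups did not overlap (LFC −0.13, unadjusted p = 0.0232). Such lower genes made up 0.361% of all genes. The p of Pcna was at or over 0.05 without EIC 67 (0.0577 by edgeR) or EIC + S60 74. Another of the 3 was Cdc20, which drives the exit from mitosis (LFC −0.73, unadjusted p = 0.0173). Tubular injury genes had 1 of 18 under that p (6.21% of all genes), Havcr1. Glucocorticoid-induced genes had a median LFC of −0.27 (−0.02 without EIC 68 and −0.13 without EIC + S60 75) and 3 of 15 lower (2.86% of all genes), namely Zbtb16 (LFC −1.66, unadjusted p = 0.00751), Fkbp5 (LFC −0.67, unadjusted p = 0.0106) and Sult1a1 (LFC −0.41, unadjusted p = 0.0173). Podocyte markers had a median LFC of 0.02 and endothelial markers one of −0.09.

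The doses of sparsentan were compared directly, as EIC + S120 vs. EIC + S60 with 13475 genes tested, of which 7 were DE genes (0.0519%), 6 higher (0.0445%) and 1 lower (0.00742%) at 120 mg/kg, and 1168 had an unadjusted p under 0.05 (8.67%). Zbtb16 was higher at 120 mg/kg, at 6.42 to 20.1 CPM against 1.43 to 2.76 CPM at 60 mg/kg (LFC 2.52, adjusted p = 0.0435 by edgeR). Cry1, a repressor of the circadian clock, was higher too (LFC 1.13, adjusted p = 0.0401 by edgeR). The only DE gene that was lower at 120 mg/kg was Gjb2, a connexin named after its value was seen (LFC −0.64, adjusted p = 0.0125 by edgeR). No DE gene was called without EIC + S60 71, 72 or 75, while 75 genes were called without EIC + S120 77. Clock genes also set the Control mice apart, with Cry1 at 1.61 to 3.67 CPM there and at 9.03 to 13.7 CPM in EIC. The hour of kidney removal is not stated, and its part was not tested. Gbp9 was at 2.49 ± 0.71 CPM in EIC + S120, beside 2.12 ± 0.23 CPM in EIC + S60. Trpm6 was at 2.31 to 6.71 CPM in EIC + S120.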

How the data were processed

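Kidney poly(A) RNA of 20 mice was sequenced by the authors. Their processing notes name Trimmomatic 0.36 for trimming, STAR 2.5.2b for alignment (GRCm38) and featureCounts of Subread 1.5.2 for counting. Each deposited table holds raw gene counts. Which annotation and strand setting the counting used is not given in the sources used here. Groups come from the labels, 1 library a mouse. The counting error is small for Ren1 and large for genes with under 100 counts.

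From the 5 EIC and 5 EIC + S60 libraries, genes reaching 10 counts in 5 or more libraries were kept, scaled by TMM and tested with edgeR 4.0.16 (glmQLFit and glmQLFTest, R 4.3.3), and p-values were adjusted by Benjamini-Hochberg over every gene in the fit. SEs come from limma 3.58.1 (log2 CPM, prior count 2). EIC + S120 vs. EIC + S60 was fitted in the same way. Scripts were tested on simulated data. Of 15780 gene names, 15388 matched GENCODE vM21, 48 RefSeq and 344 neither. Alternatives were RLE and upper-quartile scaling, no filter, a stricter filter, DESeq2 1.42.0, limma-voom, all 20 libraries in the fit, and leaving out each library.

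Genes are named by a fixed rule: up to 10 a direction by p and 5 by LFC with a mean of at least 1 CPM, up to 4 members a list by p, any member of lists of at most 12 genes or of the renin-angiotensin list, genes the study names for this dose, and markers used to check a cell type. The comparison, the 47 gene lists and the named genes were chosen with earlier results of these data known. Results for some genes are not reported here. Python 3.11.15 and pandas 2.3.3 handled tables.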

Additional observations from a re-analysis of the deposited data

Results flagged for a closer look

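In 16 of 178 groups of 5 mice (89 named genes in EIC and in EIC + S60), 1 mouse lay far from the others by Dixon's criterion, where chance gives about 1 in 20 groups. EIC 67 was the highest EIC mouse by that criterion for Tgtp1 (15.2 CPM), Psmb9 (14.8 CPM), Psmb8 (23.1 CPM), Itgb2 (10.8 CPM), Adgre1 (11.7 CPM) and Clec12a (2.48 CPM), which are genes of interferon responses and of myeloid cells. EIC + S60 72 was the highest sparsentan mouse for Havcr1 (65.5 CPM), Gbp4 (3.36 CPM), Gbp6 (1.85 CPM) and Edn3 (13.9 CPM) and the lowest for Scnn1a (79.2 CPM). Single mice also stood apart for Itpr2 (EIC 68, highest at 102 CPM), Serpina6 (EIC 65, highest at 27.3 CPM), Krt7 (EIC 66, lowest at 78.0 CPM), Gbp5 (EIC + S60 74, highest at 3.43 CPM) and Trpm6 (EIC + S60 75, lowest at 3.36 CPM).

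Between the doses, Zbtb16 (LFC 2.52) and Cry1 (LFC 1.13) differed by a direct test of EIC + S120 against EIC + S60, each with an adjusted p under the threshold by edgeR.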

How the results depend on the processing

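Ren1 stayed the only DE gene with RLE scaling and with the stricter filter. With upper-quartile scaling, no filter, limma-voom or all 20 libraries in the fit the number of DE genes was 0, with adjusted p for Ren1 of 0.0542, 0.0834, 0.0522 and 0.188, and with DESeq2 it was 14. Leaving out 1 library gave 0 to 1 DE genes, with 1 only without EIC + S60 74. Genes at an unadjusted p under 0.05 numbered 517 (without EIC + S60 75) to 1384 (without EIC 66), the lower ones 265 to 709 and the higher ones 252 to 675 (extremes without the same libraries). Genes whose groups do not overlap numbered 165 to 412 with 1 library left out, where fewer values have to be separate. DE genes between the doses were 143 by DESeq2 and 0 to 75 with 1 library left out (75 without EIC + S120 77). The LFC of Ace reversed to 0.044 with limma-voom and ran from −0.17 to 0.12 with 1 library left out, positive without EIC 65, EIC 69 or EIC + S60 73. That of Agt ran from −0.026 to 0.23, negative without EIC 66 or EIC + S60 72. That of Ren1 between the doses ran from −0.057 to 0.18, negative without EIC + S120 78, EIC + S60 72 or EIC + S60 74. The cause of these differences was not tested. Of the values for single genes in EIC + S60 vs. EIC, 1463 kept their direction and side of the threshold, 13 lost a call (Ren1 in each), 11 gained one (DESeq2 in each) and 6 reversed (Ace and Agt). No paired analysis was possible because the mouse numbers differ between groups. With 5 mice a group and at most 144 counts a library behind Nlrc5, Gbp9 and Akr1b7, the values of such genes carry wide counting error.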
